A study of Mus musculus with 12 samples.

Results

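Protein tyrosine phosphatases (PTPs) that blood cells are known to use were followed in mouse pre-B cell lines with and without BCR-ABL1. The set held 10 genes, the non-receptor phosphatases Ptpn1, Ptpn2, Ptpn6, Ptpn7, Ptpn11, Ptpn12 and Ptpn22 and the receptor-type phosphatases Ptprc, Ptprj and Ptpre. They were taken by gene symbol, with earlier results of these data known, from 51826 genes in the count table. All 10 were present and were among the 15038 genes whose counts were high enough to be tested.

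RNA was measured by sequencing of total RNA in 12 lines, 6 carrying the empty vector (EV) and 6 carrying BCR-ABL1, the fusion kinase that drives Philadelphia chromosome-positive leukemia. Bone marrow of 2 C57BL/6 mice was grown with interleukin 7 (IL7) for 7 days, and from each mouse 3 EV and 3 BCR-ABL1 lines were made. Lines are named by a digit, which was read as the mouse, and a letter (EV 2C is taken as an EV line of mouse 2). Every value given for a mouse rests on this reading. All lines stayed in IL7 for 48 h after transduction. BCR-ABL1 lines were then kept without IL7 for 1 week, whereas EV lines remained in IL7 and were sorted for the GFP that the vector encodes. Effects of the kinase, of IL7 removal and of sorting therefore cannot be told apart in any value below. The study describes the lines as independent and the triplicates as separate experiments, and does not say which line came from which experiment. Only 2 animals stand behind the lines, so p-values measure the spread between lines and not between animals. All 14 B lineage markers, among them Cd79a and Pax5, were above 3 counts in all 12 lines. Their levels were not all alike. By the main comparison described below, Dntt was called higher and Il7r lower in BCR-ABL1 lines (log2 fold change 4.30 and -1.06). This was 14.3% of the markers, against 12.5% of all tested genes. For 4 of the 14 markers the effect differed between the mice, as it did for 16.9% of all tested genes.

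Tyrosine phosphatases remove the phosphate that kinases such as BCR-ABL1, the JAK kinases and the SRC family place on tyrosine. They form a covalent intermediate with the substrate phosphate through a cysteine in a short catalytic loop, and an arginine of the same loop holds the phosphate. In lymphocytes some of them dampen signals, for example SHP-1 (Ptpn6), which docks on inhibitory receptors, whereas others keep signals running, for example CD45 (Ptprc), which activates SRC family kinases, and SHP-2 (Ptpn11), which passes growth factor signals on to RAS.

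The catalytic loop was read from the coding sequences of the mouse transcripts in GENCODE M21, as a codon for histidine, a codon for cysteine, any 5 codons and a codon for arginine. It is shown because it is the feature that the genes share and that makes their products phosphatases. All 10 genes encoded it, as did 2.61% of the 21562 coding genes searched, so the letters alone do not mark a phosphatase. For each gene the first occurrence is printed 5′ to 3′ on the coding strand, with the codons of the catalytic cysteine and arginine in capitals, and Ptpn2 is named only.
Ptpn1: cacTGCagcgccggcatcgggAGG
Ptpn6: catTGCagcgctggcatcggcCGC
Ptpn7: cacTGCagtgcagggatcggcCGG
Ptpn11: cacTGCagcgctgggattggcCGG
Ptpn12: catTGCagtgcaggctgtggaCGA
Ptpn22: cacTGCagtgccggctgcggaAGG
Ptprc: cacTGCagtgctggtgttgggCGT
Ptprj: catTGCagtgctggggttggaAGG
Ptpre: cacTGTagcgcgggcgtgggtCGG

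The 9 printed runs of 24 bases were all different, and 13 of the 24 positions held the same base in all 9. The cysteine codon was TGC in 8 genes and TGT in Ptpre. Ptpn6 and Ptpn11, the pair with tandem SH2 domains, matched at 20 of 24 bases, and Ptpn12 and Ptpn22, the pair with PEST tails, at 19. These pairs did not stand out, since Ptpn7 and Ptpn11 matched at 21, Ptpn1 and Ptpn22 at 20, and Ptpn1 and Ptpn6 at 19. Ptpre was the only one of the 10 genes with 2 such runs, and the 9 others had 1. In Ptpn1 the run lay within exon 6 of the transcript with the longest coding sequence, at chr2:167974207-167974230 of GRCm38. In 8 of the 10 genes it was split by an intron, for example between exons 11 and 12 of Ptpn6 (chr6:124722063-124724964, minus strand), exons 11 and 12 of Ptpn11 (chr5:121143614-121144537, minus strand) and exons 22 and 23 of Ptprj (chr2:90439977-90440632, minus strand).

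Total counts per line lay between 34791011 and 66011225, with a median of 53482987 in EV and 51773506 in BCR-ABL1 lines. The 3 EV lines of mouse 2 stood apart. Their biological coefficient of variation was 0.386, against 0.0843 to 0.103 in the other groups of 3 lines, and the mean distance of EV 2C to the other EV lines of its mouse was 129, where lines outside that group had 38.5 to 45.9. T and NK markers summed to 11.3 to 45.2 CPM (counts per 1000000 counts of a library, scaled by TMM) across EV lines and 1.48 to 6.02 CPM across BCR-ABL1 lines. Trac made up most of this sum in EV lines but not in BCR-ABL1 lines, where Klrb1c and Tcf7 had at least as much in most lines, and Cd3e was at 0 in 10 of 12 lines. Erythroid markers summed to 1.28 to 6.83 and 5.94 to 12.7 CPM, mostly from Hbb-bt, with both alpha globin genes at 0 in all lines. Their part in the values of the phosphatases was not tested. The sums of myeloid, mast cell and stromal markers were at most 2.06 CPM in any line. In bulk RNA, fewer cells with a transcript and less of it per cell cannot be told apart.

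Levels differed widely between the phosphatases. On the scale of CPM per kb of exon, Ptpn6 was the highest of the 10 genes in EV lines at 120 ± 29.1 (SD, n = 6) and in BCR-ABL1 lines at 65.1 ± 4.14 (SD, n = 6). A second tier followed in EV lines, with Ptprc at 22.8 ± 4.06, Ptpn7 at 19.6 ± 2.93, Ptpn11 at 16.9 ± 2.28, Ptpn2 at 15.7 ± 0.775, Ptpn1 at 12.0 ± 1.88 and Ptprj at 10.6 ± 5.37 CPM per kb (SD, n = 6 each). Within this tier the ranges of neighbouring genes overlapped. Ptpn12 at 1.37 ± 0.582, Ptpn22 at 0.739 ± 0.370 and Ptpre at 0.735 ± 0.194 CPM per kb formed a low tier, and their ranges overlapped too. Only the steps from Ptpn6 to Ptprc and from Ptprj to Ptpn12 had ranges that were separate in EV lines.

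BCR-ABL1 lines had the same 3 tiers, in a slightly different order. Ptpn7 came second at 23.3 ± 3.94 CPM per kb, ahead of Ptprc at 21.3 ± 0.461 and Ptpn2 at 19.98 ± 1.23, and these 3 neighbours overlapped. Ptpn11 at 17.4 ± 0.786 was separate from Ptpn2 above it and from Ptprj below it, at 10.6 ± 1.32, which overlapped with Ptpn1 at 10.5 ± 0.783. The lowest 3 were separate from each other, with Ptpn12 at 2.45 ± 0.946, Ptpre at 1.02 ± 0.103 and Ptpn22 at 0.322 ± 0.243 CPM per kb. Exon lengths were merged over all annotated transcripts, so genes with many long isoforms, such as Ptprc, are placed lower by this scale than a single isoform would place them.

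**Figure D1:**
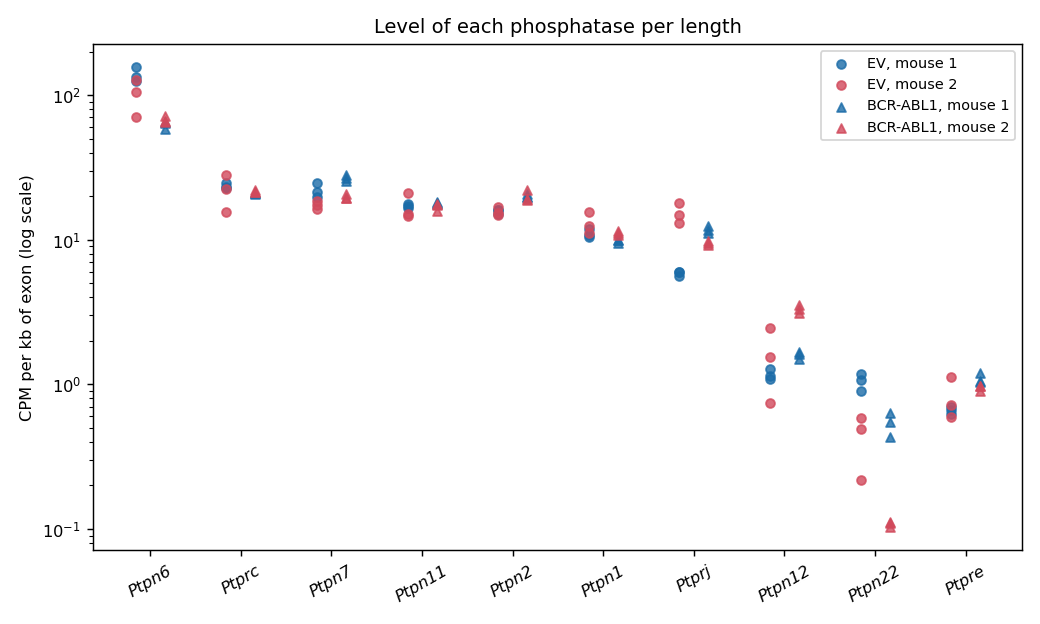
Level of each phosphatase on a log axis, in CPM per kb of exon, with 1 point per line, circles for EV and triangles for BCR-ABL1 lines, blue for mouse 1 and red for mouse 2. Genes are ordered by their mean in EV lines. Ptpn6 stands above the other 9 genes in both groups, and Ptpn12, Ptpn22 and Ptpre lie below them.

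The main comparison asked which phosphatases changed by more than 1.5-fold between BCR-ABL1 and EV lines. A gene was called when edgeR's quasi-likelihood test against that fold (glmTreat) gave a false discovery rate (FDR) under 0.05 over all 15038 genes. By this rule 0 of the 10 phosphatases were called, whereas 12.5% of all tested genes were, 5.99% higher and 6.49% lower. At an unadjusted p under 0.05 it was 1 of 10, Ptpn6, against 21.0% of all genes, and DESeq2 and edgeR's likelihood ratio fit also called 0 of 10. With mouse, which pairs the lines, as replicate block, 1 of 10 was called, Ptpn22 (lower, FDR 0.0105), against 14.7% of all genes. Without the line EV 2C, 1 of 10 was called, Ptpn6 (lower, FDR 0.00138), and that fit called 1353 genes higher and 1434 lower among 15330. The median log2 fold change over the 10 genes was 0.03, with 6 positive and 4 negative values, and over all tested genes it was -0.02. The median absolute log2 fold change was 0.30 over the phosphatases and 0.40 over all tested genes.

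Smaller shifts passed a test against no change at all. With that test 4 of 10 phosphatases had an FDR under 0.05, against 48.5% of all genes. They were Ptpn2, Ptpn12 and Ptpre, all higher with BCR-ABL1, and Ptpn6, which was lower. The same 4 genes had an exact permutation p under 0.05, as did 56.1% of all genes. For 5 of the 10 genes, Ptpn1, Ptpn2, Ptpn7, Ptpn11 and Ptprc, the 95% interval of the log2 difference from limma lay entirely within 1.5-fold, as it did for 35.8% of all tested genes. The direction was the same in the lines of both mice for 9 of the 10 phosphatases, and 25.1% of all tested genes had opposite directions. The 9 include very small log2 fold changes, 0.07 and 0.02 in mouse 1 and mouse 2 for Ptpn11 and -0.17 and -0.02 for Ptprc.

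**Figure D2:**
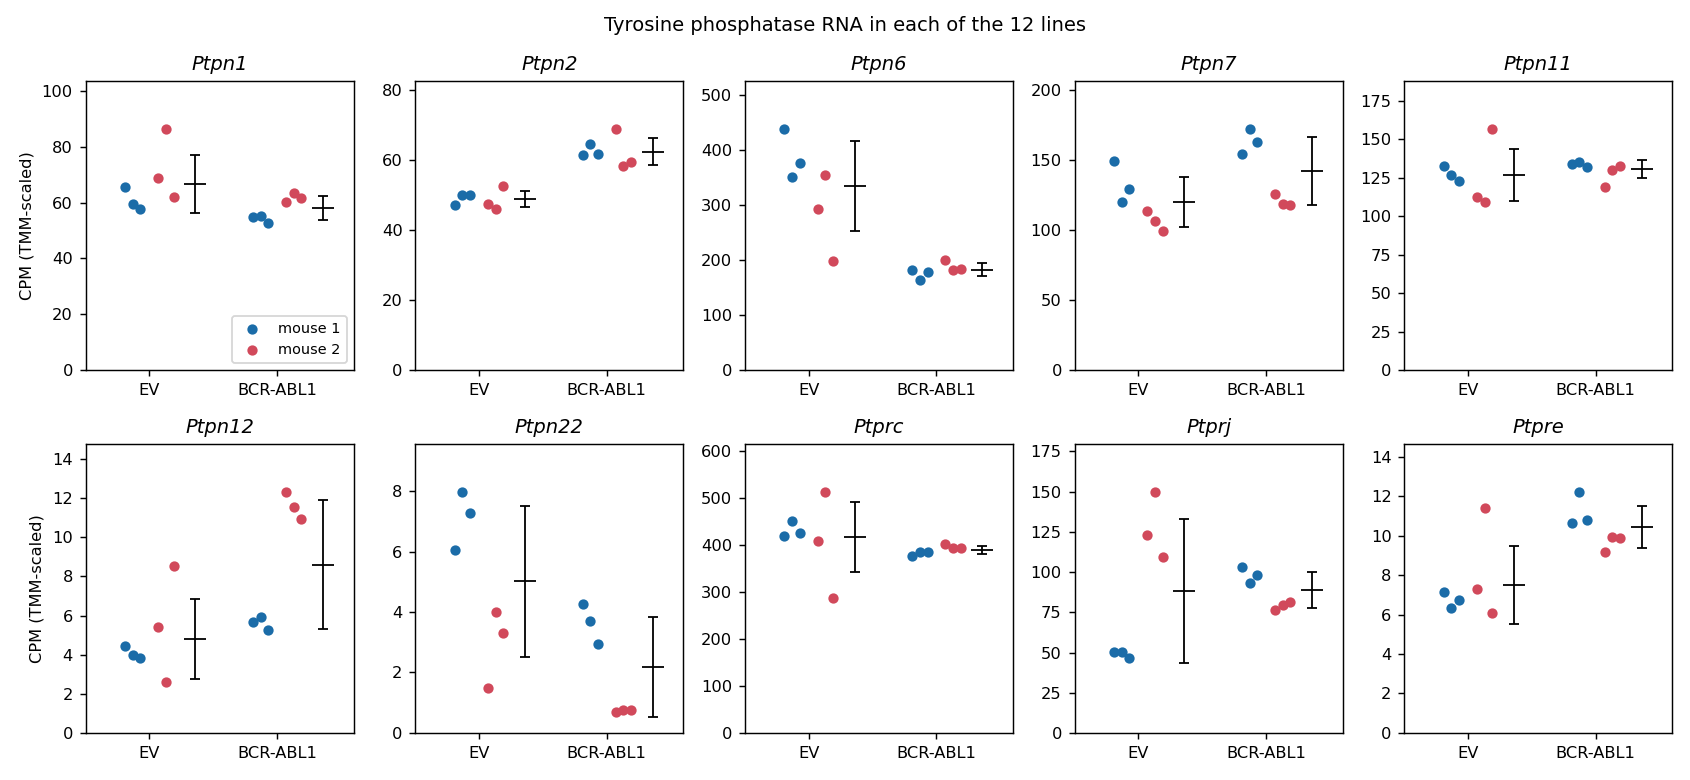
TMM-scaled CPM of the 10 phosphatases in each of the 12 lines, on linear axes that start at 0, with blue points for mouse 1 and red points for mouse 2. Horizontal bars are the mean and error bars the SD over 6 lines. Ptpn2 is the only gene of the 10 whose groups do not overlap, and the 2 mice cross over in Ptprj.

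**Figure D3:**
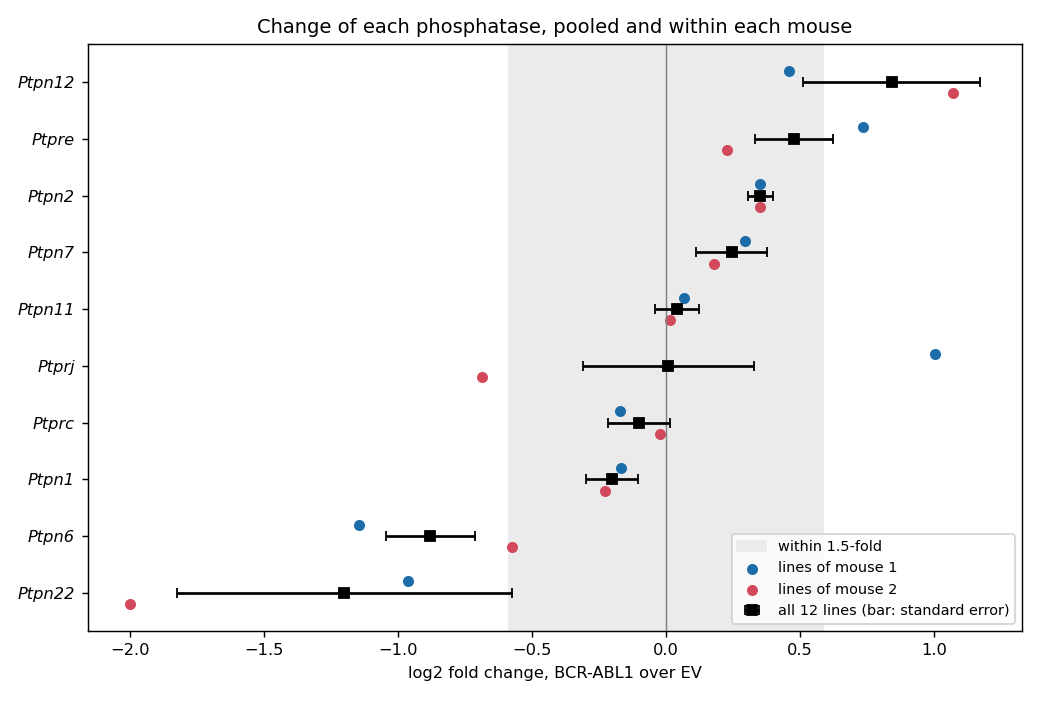
Log2 fold change of BCR-ABL1 over EV lines for each phosphatase, as black squares with standard errors for all 12 lines and as coloured points for the lines of each mouse. The grey band marks changes under 1.5-fold. Ptpn6, Ptpn12 and Ptpn22 lie outside the band, and the points of the 2 mice lie on opposite sides of 0 for Ptprj alone.

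SHP-1 and SHP-2, the phosphatases with tandem SH2 domains, differed in their values. Ptpn6 (ENSMUSG00000004266, chr6:124720707-124738714, minus strand) encodes SHP-1, which ends signals of B cell and cytokine receptors. It had 199 to 438 CPM across EV lines, with a median of 354, and 164 to 201 CPM across BCR-ABL1 lines, with a median of 183. All EV lines but EV 2C, at 199 CPM, were above all BCR-ABL1 lines. Ptpn6 had a log2 fold change of -0.88 (SE 0.17), a 1.84-fold lower mean, which missed the threshold at an FDR of 0.0694. The exact two-sided permutation test over all 924 splits of the lines into 6 and 6, whose smallest possible p is 0.00216, gave p = 0.00433.

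Without EV 2C, Ptpn6 passed the threshold, with a log2 fold change of -0.99 and an FDR of 0.00138. That fit called 1353 genes higher and 1434 lower among 15330. Leaving out any other single line left Ptpn6 uncalled, with an FDR of 0.05245 to 0.214. Within mouse 1 it fell to a mean of 175 CPM from 389 CPM in EV lines (FDR 0.00650), and within mouse 2 its log2 fold change was -0.58 (FDR 0.756). The difference between the mice was itself not past the threshold, with an FDR of 0.144. An antisense gene, Gm20531, shares exons with Ptpn6 but had at most 0.184 CPM in any line.

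Ptpn11 (ENSMUSG00000043733, chr5:121130533-121191397, minus strand) encodes SHP-2, which is needed for RAS and MAPK signaling from growth factor receptors. It had 109 to 157 CPM across EV lines (median 125) and 119 to 135 CPM across BCR-ABL1 lines (median 132). The groups overlapped over nearly their whole range. On the log2 scale the fold change of 0.04 (SE 0.08) had a 95% interval from -0.13 to 0.23, and the exact two-sided permutation test gave p = 0.561.

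The balance of the pair was read within each line, where scaling between libraries plays no part. The ratio of Ptpn6 to Ptpn11 counts was 2.60 to 3.29 in 5 EV lines and 1.27 in EV 2C, and 1.21 to 1.68 in the BCR-ABL1 lines. EV 2C thus lay within the range of the BCR-ABL1 lines. Of the counts on the 10 phosphatases together, Ptpn6 took 20.2 to 33.2% in EV lines and 15.1 to 18.7% in BCR-ABL1 lines, and these ranges did not overlap. The summed level of the 10 genes was 983 to 1384 CPM across EV lines and 1049 to 1092 CPM across BCR-ABL1 lines.

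Ptpn1 and Ptpn2 encode the closely related enzymes PTP1B and TCPTP, which remove phosphate from JAK kinases and STATs. Ptpn2 (ENSMUSG00000024539, on chromosome 18) had 46.1 to 52.7 CPM across EV lines (median 48.7) and 58.3 to 68.8 CPM across BCR-ABL1 lines (median 61.7). It was the only one of the 10 phosphatases whose groups did not overlap, in a table where 25.6% of all genes had separate groups, 12.1% with BCR-ABL1 lines higher. The log2 fold change of 0.35 (SE 0.05, 95% interval 0.23 to 0.47) was too small for the test against 1.5-fold (FDR 1) and passed the test against no change (FDR 0.000408). The exact two-sided permutation p was 0.00216, the smallest possible. Lines of mouse 1 and mouse 2 gave the same log2 fold change of 0.35.

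Ptpn1 (ENSMUSG00000027540, chr2:167932057-167979385, plus strand) showed the opposite sign. It had 57.8 to 86.3 CPM across EV lines (median 63.8) and 52.7 to 63.5 CPM across BCR-ABL1 lines (median 57.6), and the groups overlapped. Its log2 fold change was -0.20 (SE 0.10), with a 95% interval from -0.40 to 0.01 and an exact two-sided permutation p of 0.0563.

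Ptpn7 (ENSMUSG00000031506, chr1:135132700-135145317, plus strand) encodes HePTP, a phosphatase of hematopoietic cells that acts on the MAP kinases ERK and p38. It had 99.6 to 149 CPM across EV lines (median 117) and 118 to 172 CPM across BCR-ABL1 lines (median 140.1). In both groups the lines of mouse 1 were above those of mouse 2, with 120 to 149 and 99.6 to 114 CPM across EV lines and 154 to 172 and 118 to 126 CPM across BCR-ABL1 lines. On the log2 scale the fold change was 0.24 (SE 0.13), with a 95% interval from -0.03 to 0.51 and an exact two-sided permutation p of 0.0974.

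The PEST-tail phosphatases Ptpn12 and Ptpn22 were low and had opposite signs. Ptpn12 (ENSMUSG00000028771, chr5:20986645-21055911, minus strand) encodes PTP-PEST, which acts on adhesion and cytoskeletal proteins. It had 2.62 to 8.55 CPM across EV lines (median 4.22) and 5.25 to 12.3 CPM across BCR-ABL1 lines (median 8.43). The 3 BCR-ABL1 lines of mouse 2, at 10.9 to 12.3 CPM, were above all others, and EV 2C, at 8.55 CPM, was above all BCR-ABL1 lines of mouse 1. The log2 fold change was 0.84 (SE 0.33, FDR 0.357), and the exact two-sided permutation p was 0.0411. It was 0.46 within mouse 1 and 1.07 within mouse 2, and the difference between the mice had an FDR of 0.412.

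Ptpn22 (ENSMUSG00000027843, chr3:103859795-103912247, plus strand) encodes LYP, also named PEP, which restrains antigen receptor signals together with the kinase CSK. It had 1.47 to 7.97 CPM across EV lines (median 5.03) and 0.693 to 4.27 CPM across BCR-ABL1 lines (median 1.85). Over all 12 lines the groups overlapped, but within each mouse they were separate. In mouse 1, EV lines had 6.06 to 7.97 and BCR-ABL1 lines 2.93 to 4.27 CPM. In mouse 2, EV lines had 1.47 to 3.99 and BCR-ABL1 lines 0.693 to 0.760 CPM, which came from 36 to 50 counts. Groups were also separate within each mouse for Ptpn2, Ptpn7, Ptpn12 and Ptprj. The share of all genes with such a separation was not counted.

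The pooled log2 fold change of Ptpn22 was -1.20 (SE 0.62, FDR 0.359), with an exact two-sided permutation p of 0.0606. With mouse as replicate block it was -1.46 and passed the threshold (FDR 0.0105), which made Ptpn22 the 1 phosphatase of 10 called under the block, where 14.7% of all genes were called and 7.18% were called lower. Within mouse 2 it fell by 2.00 on the log2 scale (FDR 0.00383), and within mouse 1 the log2 fold change was -0.96 (FDR 0.159). These calls changed places when each mouse was fitted alone, with an FDR of 0.0245 in mouse 1 and 0.0502 in mouse 2. The difference between the mice had an FDR of 0.137. The 3 genes whose log2 CPM followed Ptpn22 most closely over the 12 lines, which share mouse and condition, were Iglj3p, Plcxd2 and Gm8369, with Pearson r of 0.936, 0.935 and 0.926.

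Among the receptor-type phosphatases, Ptprc (ENSMUSG00000026395, chr1:138062861-138175708, minus strand) encodes CD45, the leukocyte surface phosphatase that removes the inhibitory phosphate of SRC family kinases. It had 286 to 513 CPM across EV lines (median 422) and 377 to 401 CPM across BCR-ABL1 lines (median 389.6). BCR-ABL1 lines lay within the range of the EV lines, whose lowest value was that of EV 2C and whose highest was that of EV 2B. Its log2 fold change was -0.10 (SE 0.12), with a 95% interval from -0.32 to 0.16 and an exact two-sided permutation p of 0.548. Ptprc took 29.1 to 37.1% of the counts on the 10 phosphatases in EV lines and 34.6 to 37.5% in BCR-ABL1 lines. Ptprcap, which encodes a protein bound to CD45, had 266 to 494 CPM across EV and 231 to 293 CPM across BCR-ABL1 lines and was not called (log2 fold change -0.59, SE 0.14, FDR 0.742).

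Ptprj (ENSMUSG00000025314, chr2:90429754-90580647, minus strand) encodes CD148, a receptor-type phosphatase that acts on SRC family kinases in B cells and macrophages. It had 46.7 to 150 CPM across EV lines (median 79.9) and 76.3 to 103 CPM across BCR-ABL1 lines (median 87.5). The pooled log2 fold change of 0.01 (SE 0.32, 95% interval -0.47 to 0.79) joined opposite differences in the mice. In mouse 1, EV lines had 46.7 to 50.2 CPM and BCR-ABL1 lines 93.2 to 103 CPM. In mouse 2, EV lines had 110 to 150 CPM and BCR-ABL1 lines 76.3 to 81.7 CPM.

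Within each mouse the groups of Ptprj were thus separate, in opposite directions. It rose by 1.00 on the log2 scale in mouse 1 (FDR 0.00197), and its log2 fold change in mouse 2 was -0.69 (FDR 0.283). The difference between the mice was -1.69 on the log2 scale with an FDR of 2.54e-05, and Ptprj was the 1 phosphatase of 10 with such a difference, which 16.9% of all genes had. Within a line, the ratio of Ptprj to Ptprc counts had a median of 0.111 in EV lines of mouse 1 and 0.301 in EV lines of mouse 2, and of 0.255 and 0.203 for BCR-ABL1 lines of these mice. Together with Ptpn6, Ptprj made 2 of 10 phosphatases called within mouse 1 (19.3% of all genes), and Ptpn22 was the 1 called within mouse 2 (12.9%). When the lines of each mouse were fitted alone, Ptpn6, Ptprj and Ptpn22 were called in mouse 1 and none of the 10 in mouse 2. Of all genes, the fit of mouse 1 called 2512 higher and 1877 lower among 15395, and that of mouse 2 called 614 and 408 among 15400.

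Ptpre (ENSMUSG00000041836, chr7:135537481-135686293, plus strand) encodes PTP epsilon, the closest relative of Ptpra. It had 6.06 to 11.4 CPM across EV lines (median 6.94) and 9.19 to 12.2 CPM across BCR-ABL1 lines (median 10.3). All EV lines but EV 2B, at 11.4 CPM, were below all BCR-ABL1 lines. On the log2 scale the fold change was 0.48 (SE 0.15, FDR 1; FDR 0.0254 in the test against no change), with an exact two-sided permutation p of 0.0130. It was 0.73 within mouse 1 and 0.23 within mouse 2. The antisense gene 5830432E09Rik, which shares exons with Ptpre, had 3.05 to 5.13 CPM across EV and 1.08 to 3.74 CPM across BCR-ABL1 lines, and since the strand setting of the counting is not stated, reads of the pair may not be fully separated.

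The other classical PTPs gave a family background. Of 28 such genes 9 were tested, with 1 called higher and 1 called lower, and their median log2 fold change was -0.06. Ptpra, the relative of Ptpre, fell in BCR-ABL1 lines, where Ptpre did not pass the test. It had 85.0 to 170.0 CPM across EV lines and 51.9 to 69.1 CPM across BCR-ABL1 lines, without overlap, and a log2 fold change of -1.07 (SE 0.15, FDR 0.00529). The effect in mouse 1 and mouse 2 was -1.08 and -1.06. Ptpn5, a phosphatase known from neurons, was the gene called higher (log2 fold change 2.54, SE 0.61, FDR 0.0474), at no more than 0.318 CPM across EV and 1.14 CPM across BCR-ABL1 lines, with overlapping groups.

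Ptpn18, which like Ptpn12 and Ptpn22 has a PEST tail, changed order between the mice as Ptprj did. It had 80.7 to 81.0 CPM across EV lines of mouse 1 and 121 to 142 CPM across EV lines of mouse 2, and 113 to 133 and 72.7 to 85.2 CPM for BCR-ABL1 lines from these mice. The pooled log2 fold change was -0.06 (SE 0.21), and it was 0.60 in mouse 1 and -0.71 in mouse 2. The difference between the mice was -1.31 on the log2 scale (FDR 5.64e-05). Neither value within a mouse was past the threshold.

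**Figure D4:**
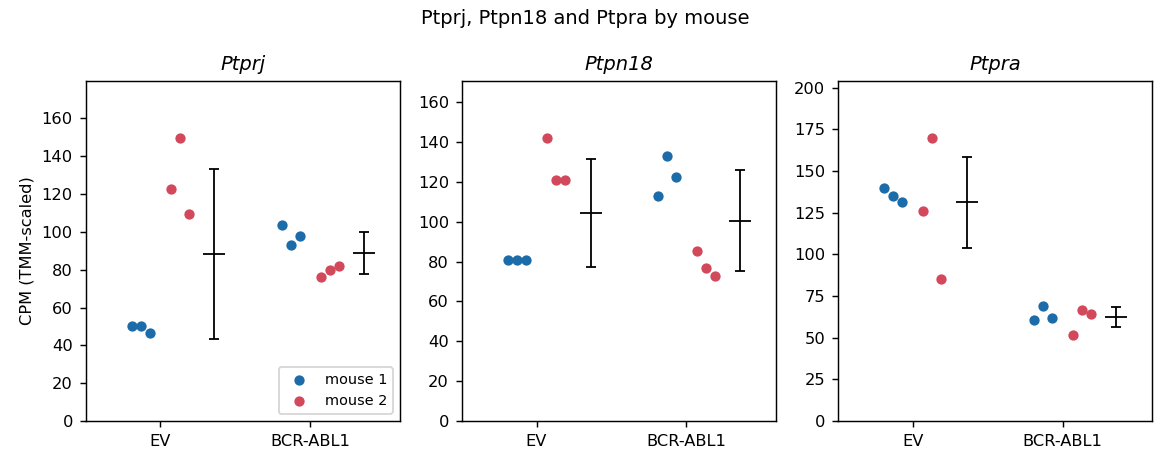
TMM-scaled CPM of Ptprj, Ptpn18 and Ptpra by line, with blue points for mouse 1 and red points for mouse 2, and mean and SD over 6 lines. In Ptprj and Ptpn18 the BCR-ABL1 lines lie above the EV lines in mouse 1 and below them in mouse 2, and in Ptpra they lie below them in both mice.

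The 19 other classical PTPs that were not tested were near absent. The highest count in any line was 28, and 18 of the 19 genes had at most 3 counts in every BCR-ABL1 line. For 17 of them the highest CPM was in EV 2A, the line with the fewest counts, whose summed count over these 19 genes was 291 where the other lines had 8 to 111. Values at this depth do not show whether cells express these genes.

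Genes that work with or beside these phosphatases were taken from lists. Of 10 further phosphatases that act on phosphotyrosine, among them Acp1 and the Cdc25 genes, all 10 were tested, 0 were called higher and 1 was called lower, with a median log2 fold change of 0.14. This was Ubash3a, which encodes STS-2, a suppressor of antigen receptor signals, with 72.2 to 124 CPM across EV lines and 10.0 to 46.7 CPM across BCR-ABL1 lines (log2 fold change -1.82, SE 0.48, FDR 0.0287). It was lower in both mice and more so in mouse 2, where the BCR-ABL1 lines had 10.0 to 12.3 CPM (difference between the mice -1.61 on the log2 scale, FDR 6.94e-05).

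Of 25 receptors and adaptors that bring SHP-1 or SHP-2 to the membrane, 21 were tested, and 17 of them had a negative log2 fold change, with a median of -0.27, where 7780 of all 15038 tested genes were negative and the median was -0.02. Called were 2 lower and 1 higher, which is 14.3% of the list against 12.5% of all tested genes. Cd72, an inhibitory coreceptor of B cells that docks SHP-1, had 244 to 592 CPM across EV lines and 73.2 to 92.5 CPM across BCR-ABL1 lines, without overlap (log2 fold change -2.52, SE 0.20, FDR 7.65e-06). Cd22, another inhibitory receptor that docks SHP-1, had 82.4 to 195 and 21.8 to 81.4 CPM, also without overlap (log2 fold change -1.36, SE 0.34, FDR 0.0345). The adaptor Irs2, which binds SHP-2, was at most 1.61 CPM across EV lines and 9.65 to 12.9 CPM across BCR-ABL1 lines (log2 fold change 5.15, SE 0.91, FDR 0.0102). Values of the 18 others did not pass the test.

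Of 30 kinases and STATs known as substrates of these phosphatases, 27 were tested, 1 was called higher and 3 were called lower, with a median log2 fold change of -0.13. The receptor kinase Flt3 had 0.159 to 0.705 CPM across EV lines and 4.61 to 7.00 CPM across BCR-ABL1 lines (log2 fold change 3.61, SE 0.32, FDR 2.86e-05). Jak3, the kinase of the common gamma chain receptors, had 72.2 to 96.4 and 32.6 to 47.7 CPM (log2 fold change -1.04, SE 0.11, FDR 0.00198). Zap70, a SYK family kinase, had 38.1 to 76.3 CPM across EV lines and 2.45 to 19.7 CPM across BCR-ABL1 lines (log2 fold change -2.46, SE 0.60, FDR 0.0147). The SRC family kinase Fgr was at most 1.45 CPM and lower in BCR-ABL1 lines (log2 fold change -2.82, SE 0.42, FDR 0.00210). In 8 of the 27 genes all BCR-ABL1 lines were below all EV lines, against 13.5% of all tested genes, and in 2 they were all above, against 12.1%. The called genes were 14.8% of the list, against 12.5% of all tested genes.

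Of 14 binding partners, 12 were tested, 2 were called higher and 0 lower, with a median log2 fold change of 0.18. Lgals1, whose product galectin-1 binds CD45 on the cell surface, had 8.36 to 33.8 CPM across EV lines and 71.1 to 144 CPM across BCR-ABL1 lines, without overlap (log2 fold change 2.21, SE 0.42, FDR 0.00358). Ptk2, which encodes the focal adhesion kinase, had 0 to 0.184 CPM across EV lines and up to 2.05 CPM across BCR-ABL1 lines (log2 fold change 4.49, SE 0.66, FDR 0.00546). Csk and Pag1, which act with Ptpn22 and Ptprc on SRC family kinases, were not called, with log2 fold changes of -0.33 and 0.04.

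**Figure D5:**
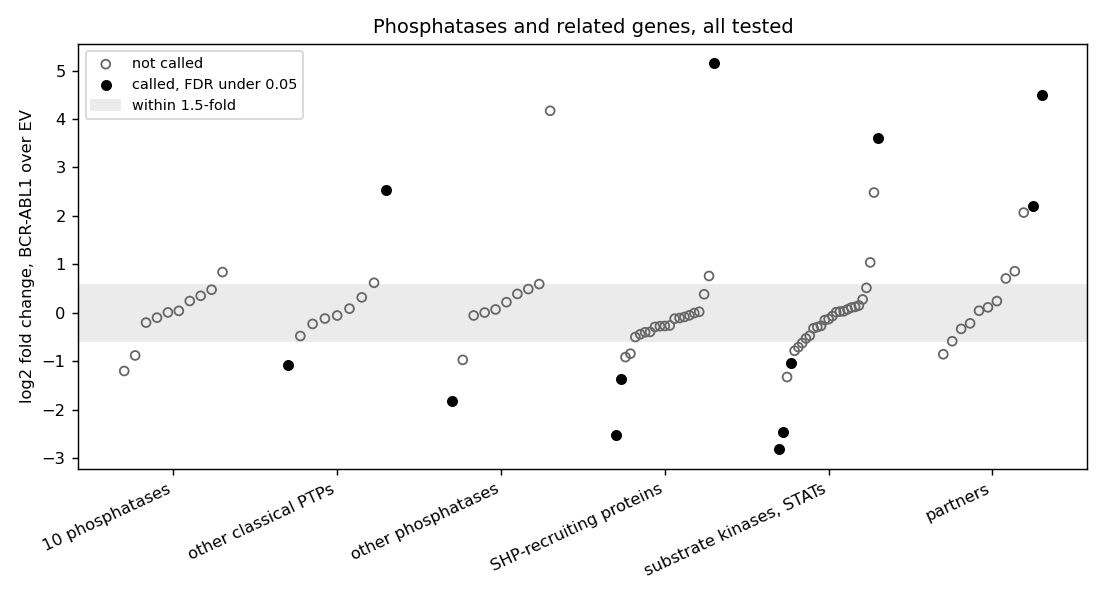
Log2 fold change of BCR-ABL1 over EV lines for the tested genes of each list, 1 circle per gene, filled where the gene was called. The grey band marks changes under 1.5-fold. The 10 phosphatases hold no filled circle, and the lists of recruiting proteins, substrates and partners hold 3 of 21, 4 of 27 and 2 of 12, shares of 14.3%, 14.8% and 16.7% that lie near the 12.5% of all tested genes.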

How the data were processed

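Total RNA of 12 lines was sequenced on stranded libraries. According to the submitters' processing notes, which give no order or role, the tools were FastQC 0.11.5, Trimmomatic 0.36, TopHat2 2.1.1, Bowtie2 2.3.2, featureCounts 1.5.3, R 3.6.1 and edgeR 3.18.1, with the build GRCm38. The annotation release and the strand setting are not given in the sources used here. The authors deposited whole-number counts per gene, not normalized and not pooled, which were used as deposited.

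Symbols, positions and exon lengths came from GENCODE M21 (GRCm38), which held 51633 of 51826 identifiers. Genes were filtered with filterByExpr, scaled by TMM and tested in R 4.3.3 with edgeR 4.0.16 (glmQLFit, glmTreat against 1.5-fold, Benjamini-Hochberg over 15038 genes), all 12 lines in a single fit. Effects within each mouse and their difference (glmQLFTest) came from a fit with 4 groups of 3 lines. Intervals came from limma 3.58.1, and DESeq2 1.42.0 was an alternative. Standard errors were computed from the spread of log2 CPM (prior count 2) between lines. Log2 fold changes came from edgeR, whereas standard errors and intervals belong to the difference of mean log2 CPM. The intervals are therefore not centred on the printed fold changes, most of all in genes with low counts (Irs2 had 5.15 and an interval of 4.78 to 8.36).

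The phosphatases and the lists were chosen with earlier results of these data known. Named genes are all 10 phosphatases, called genes of each list (at most 6 by absolute log2 fold change), Ptpra and Ptpn18 as relatives, and the 3 closest correlates of each phosphatase called in the pooled or the blocked fit. Ptprcap, Csk and Pag1, named as partners, are outside this rule and were chosen after their values were seen.

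Lines of both groups share the names 1A to 2C, and the first digit was read as the mouse. Deviations from group means correlated at 0.0853 to 0.240 between an EV and a BCR-ABL1 line that share the digit and at -0.203 to -0.0636 for different digits. The digit thus pairs the lines, whereas the letter does not (-0.109 to 0.0856 after removal of mouse means). A shared mouse and a shared batch cannot be told apart by these values. Replicates differed by far more than sampling noise (chi-square per gene 9.36 to 434). The fits were tested on simulated counts of the comparison of BCR-ABL1 with EV lines, where glmTreat recovered 168 of 200 changed genes among 14882 and called 3 others. The planted changes were larger than the pooled change of any of the phosphatases. Simulated lines had no mouse effect and no group of more variable lines. Recovery of changes as small as those of the phosphatases was therefore not tested. The floor of 3 counts covers counting error only. Plots were drawn with matplotlib 3.10.9.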

Additional observations from a re-analysis of the deposited data

Results flagged for a closer look

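The effect on Ptprj differed between the mice, by -1.69 on the log2 scale (mouse 2 minus mouse 1, FDR 2.54e-05 in edgeR's test of the interaction over all genes). All 3 BCR-ABL1 lines were above all 3 EV lines in mouse 1 and below them in mouse 2, and EV lines of mouse 2 were the most variable of the 4 groups of lines.

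Single lines stood far from the rest of their group in 2 cases. Ptpre in EV 2B had 11.4 CPM, where the nearest of the other EV lines had 7.30 CPM, and this gap was 0.769 of the group's range. Ptpn11 in BCR-ABL1 2A had 119 CPM, where the nearest BCR-ABL1 line had 130.1 CPM, a gap of 0.673 of the range. Both gaps were beyond Dixon's 95% limit for 6 lines, and since 20 groups were examined and chance passes that limit in about 1 of 20, about 1 such case would arise from chance.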

How the results depend on the processing

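For each phosphatase 22 alternatives were tried. The main fit called 0 of the 10, so no call of the main fit could change sign. The values of Ptprj, which had the widest range around 0, lay between -0.67 (mouse 2 alone, not called) and 1.01 (mouse 1 alone, called). Those of Ptpn11 lay between -0.01 and 0.11. The counts moved as follows. With the test against no change, 3389 genes were higher and 3897 lower, and 3 and 1 of the phosphatases. With the lines of mouse 1 alone, 2512 and 1877 genes, and 1 (Ptprj) and 2 phosphatases (Ptpn6 and Ptpn22). With the lines of mouse 2 alone, 614 higher and 408 lower genes and 0 phosphatases, since the call on Ptpn22 within mouse 2 from the fit of all lines was lost (FDR 0.0502). With mouse as replicate block, 1 phosphatase, Ptpn22, was lower, as with mouse and letter as block (FDR 0.0424), and no other call on a phosphatase changed under the block. Leaving out 1 line in turn gave 807 to 1353 higher and 802 to 1434 lower genes, and 0 higher and 0 to 1 lower phosphatases. The upper ends came without EV 2C, when 1353 and 1434 genes and Ptpn6 (FDR 0.00138) were called, against 901 and 976 with all lines. The share of higher genes among those called was 48.0% in all lines, 57.2% in mouse 1 alone and 60.1% in mouse 2 alone. Without the gene filter the median log2 fold change of all genes was -0.837 over 40750 genes, mostly at very low counts, against -0.02.

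Ptpn22, Ptpn12 and Ptpre were the least deeply counted phosphatases, with 36 to 50 counts for Ptpn22 in BCR-ABL1 lines of mouse 2. Exact permutation over 6 and 6 lines treats lines of a mouse as independent.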
